A study of Mus musculus with 4 samples.

Results

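The genes of the DNA replication machinery were followed on 4 arrays of C2C12, an established line of mouse muscle precursors that stops dividing and forms myotubes once serum is reduced. Members were chosen by gene symbol: the Mcm, Orc, Gins, Rfc, Pola, Pold, Pole, Prim and Rpa symbols that end in or continue with a digit, plus 22 genes listed by name, all of which were measured. This gave 44 members among 14860 measured genes, with no gene left out for a low level. The symbols alone contributed 22 of the 44, and each member had 1 single-gene transcript cluster (the set of probes that reads 1 gene).

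Each group was 1 sample on 1 array: differentiating cells with an siRNA against MUNC (siMUNC), differentiating cells with a control siRNA, proliferating cells with siMUNC, and proliferating cells with the control siRNA. MUNC is a long noncoding RNA made upstream of Myod1. Proliferating cells grew in 10% fetal bovine serum, and differentiating cells were taken 3 days after a change to 2% horse serum at 80% confluence. All 4 groups come from 1 established line and carry an siRNA, and MUNC itself was not analysed here, so the depth of the knockdown is unknown. Levels are the authors' log2 array signals and differences are log2 differences between 2 arrays. No group was replicated, so the precision is limited by the number of arrays, nothing could be tested and no p-value is given. A gene was counted where its difference reached 1, which is 2-fold. A level on an array depends on the probes, so levels are compared only within a gene.

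Before a cell copies its DNA, the origin recognition complex and Cdc6 load the MCM helicase at origins. In S phase the helicase is switched on by Cdc45 and the GINS complex, polymerase alpha-primase lays down primers, and polymerases delta and epsilon extend them with the help of the RFC clamp loader and the single-strand binding protein RPA. Many of these genes are transcribed under E2F factors, which are held inactive when myoblasts leave the cell cycle to become myotubes.

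The labelled cell type could be checked on marker genes. Of 8 muscle markers 7 were measured. In differentiating cells 6 of the 7 were lower and 1 higher with siMUNC, and in proliferating cells 3 were lower and 4 higher. Of all genes 52.0% were higher with siMUNC in differentiating cells and 43.1% lower in proliferating cells. The myogenic factor gene Myod1 read 10.70 in siMUNC and 11.75 in control differentiating cells, and 10.95 in siMUNC and 11.46 in control proliferating cells. Myog, which encodes myogenin, read 10.56 in siMUNC and 12.21 in control differentiating cells, and 7.45 in siMUNC and 8.43 in control proliferating cells. Myf5, another myogenic factor gene, went the other way: it read 10.81 in siMUNC and 10.19 in control differentiating cells, and 10.86 in siMUNC and 10.43 in control proliferating cells. The summed linear signal of the 7 was 28979 in siMUNC and 46897 in control differentiating cells, and 14347 in siMUNC and 14834 in control proliferating cells. Such a sum mixes probes and is led by the brightest gene, which on every array was the desmin gene Des (13.17 to 13.63). The leukocyte gene Ptprc stayed between 4.98 and 5.15 on the 4 arrays and the endothelial gene Kdr between 5.53 and 5.55, both below the median signal of every array (7.96 to 8.03). Of the 10 markers of blood, endothelial and fat cells, all measured, 2 were above that median on every array: Cd68, a macrophage marker, at 8.10 to 8.77, and Plin1, an adipocyte marker, at 8.18 to 8.63. Mki67, a marker of dividing cells, had the same order of arrays as most members below. It read 8.86 in siMUNC and 7.67 in control differentiating cells, and 9.86 in siMUNC and 10.50 in control proliferating cells. In such bulk RNA fewer dividing cells and less replication RNA per cell cannot be told apart.

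Replication genes were lower in differentiating cells with either siRNA, and the difference was smaller with siMUNC. In siMUNC cells 7 of 44 members were past 2-fold lower in differentiating than in proliferating cells, against 0.828% of all measured genes, with a median difference of -0.64 (-0.02 over all genes). In control cells 30 of 44 were past 2-fold lower, against 4.08% of all genes, with a median of -1.63 (0.05 over all genes). Members below 0 numbered 43 of 44 in siMUNC cells (53.7% of all genes) and 43 of 44 in control cells (44.1% of all genes). The exception in both was Orc3, a subunit of the origin recognition complex, at 0.04 in siMUNC and 0.14 in control cells, and centring the arrays on their medians turned the siMUNC value to -0.02.

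Seen between the siRNAs, the members stood on opposite sides of 0 in the 2 states. Differentiating cells with siMUNC had 40 of 44 members above 0 (52.0% of all genes; median 0.63, against 0.01 over all genes), and 4 of 44 past 2-fold higher (1.27% of all genes). These 4 were Chaf1b (1.20), Mcm3 (1.17), Rfc3 (1.06) and Orc1 (1.05). Proliferating cells with siMUNC had 43 of 44 members below 0 (43.1% of all genes; median -0.30, against 0.04 over all genes), though 0 of 44 were past 2-fold lower (0.350% of all genes). Above 0 in differentiating and below 0 in proliferating cells were 39 of 44 members, against 19.7% of all genes.

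The differentiation difference was less negative in siMUNC than in control cells for 41 of 44 members, against 46.2% of all genes, and for 21 of 44 by at least 1 on the log2 scale, against 2.00% of all genes. The median of this difference of differences was 0.97 (-0.03 over all genes). Of the 21 members, 19 were among the 22 genes listed by name, which were listed with earlier results of these data known. For 39 of 44 members the 4 arrays stood in 1 order from low to high, namely control differentiating, siMUNC differentiating, siMUNC proliferating and control proliferating, against 11.1% of all genes. The 5 exceptions were Orc3, Orc5, Pold4, Pole3 and Pole4. These comparisons share arrays with each other, so they are views of the same 4 values per gene and not separate evidence. The shares of all genes given so far also apply to the counts of members by role below.

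**Figure D1:**
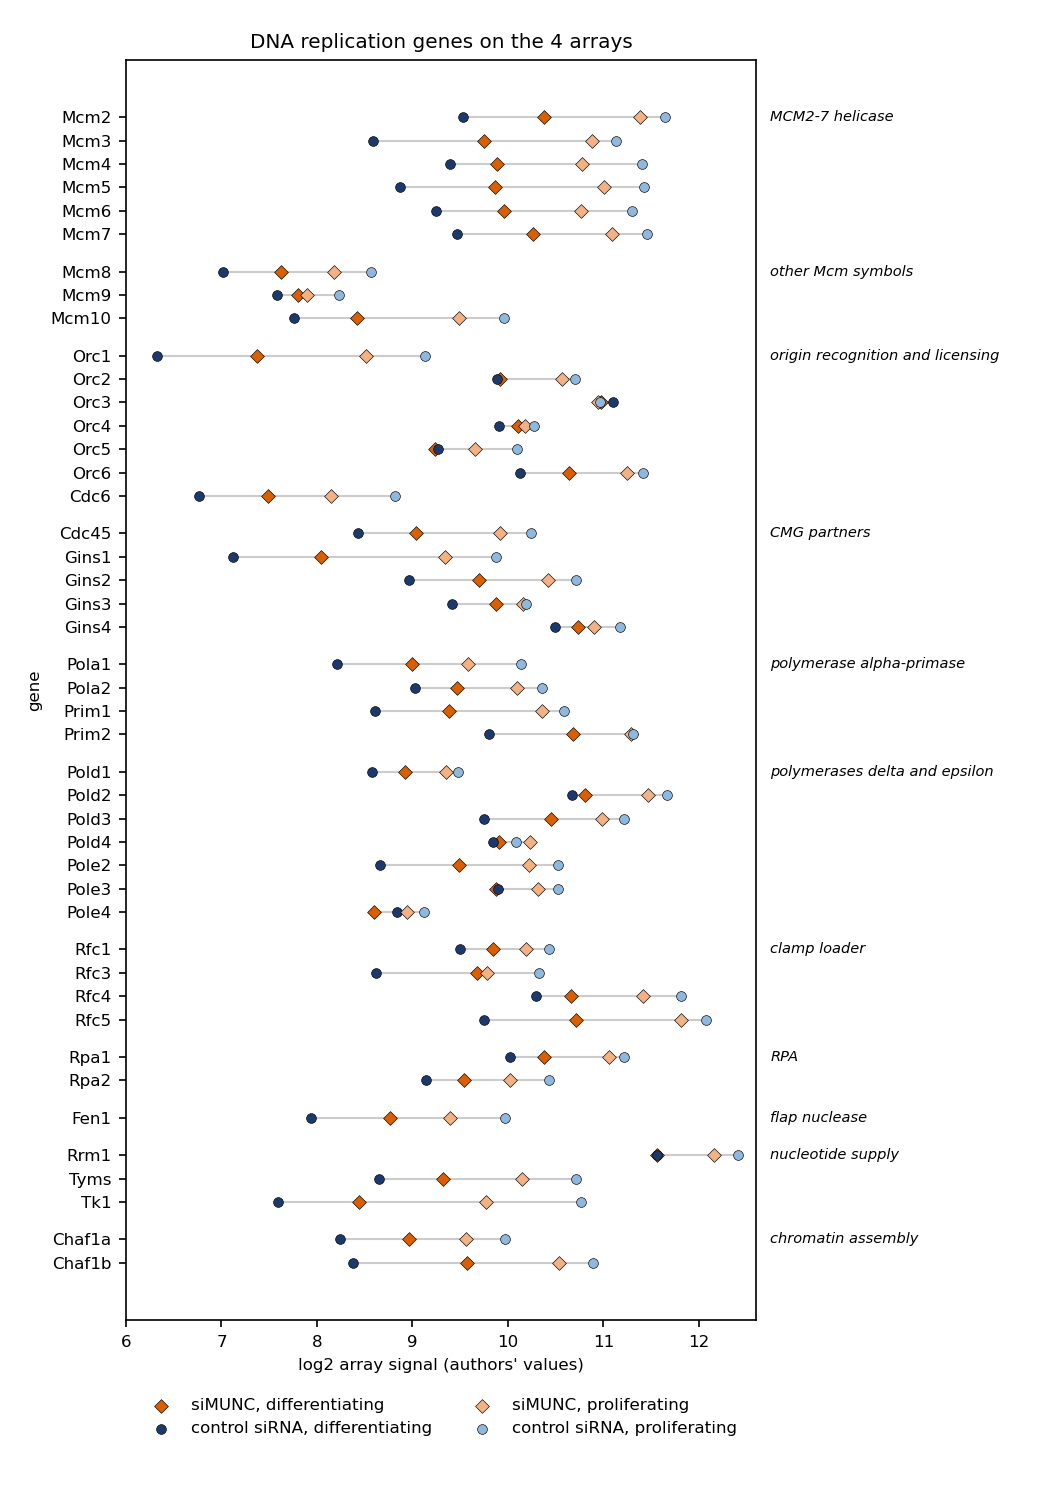
Log2 signal (horizontal axis) of each of the 44 replication genes (vertical axis, grouped by role) on the siMUNC and control arrays of differentiating and proliferating cells, 1 point per array; positions may be compared along a row, not between rows. In 39 of 44 rows the siMUNC differentiating point lies above the control differentiating one and below both proliferating points, with the control proliferating point highest.

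The 6 subunits of the MCM2-7 helicase, the ring that unwinds DNA at the fork, all had the common order of the arrays. Mcm5 read 9.87 in siMUNC and 8.87 in control differentiating cells, and 11.00 in siMUNC and 11.43 in control proliferating cells. Mcm3 read 9.75 in siMUNC and 8.59 in control differentiating cells, and 10.88 in siMUNC and 11.13 in control proliferating cells. Both genes were lowest in control differentiating and highest in control proliferating cells.

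Levels of Mcm2 were 10.38 in siMUNC and 9.53 in control differentiating cells, and 11.38 in siMUNC and 11.65 in control proliferating cells. Those of Mcm7 were 10.26 and 9.47 in siMUNC and control differentiating cells, and 11.09 and 11.46 in siMUNC and control proliferating cells. Those of Mcm6 were 9.96 and 9.25 in siMUNC and control differentiating cells, and 10.77 and 11.30 in siMUNC and control proliferating cells. Mcm4 departed a little from its partners. Its level was 9.88 in siMUNC and 9.40 in control differentiating cells, and 10.78 in siMUNC and 11.41 in control proliferating cells, so that its siMUNC difference was the narrowest of the 6 in differentiating cells (0.49) and the widest in proliferating cells (-0.63).

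On differentiation in siMUNC cells Mcm5 (-1.14) and Mcm3 (-1.13) were past 2-fold lower, Mcm2 was just short of it at 1.998-fold, and the 6 had a median difference of -0.95. In control cells all 6 were past 2-fold lower (median -2.09, range -2.56 to -1.99). The siMUNC difference in differentiating cells ran from 0.49 to 1.17 over the 6, with Mcm3 past 2-fold and Mcm5 at 1.99-fold. All 6 also had a difference of differences of at least 1 (1.12 to 1.42).

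Among the other Mcm genes, Mcm10, which helps to activate the loaded helicase, followed the ring. It read 8.42 in siMUNC and 7.76 in control differentiating cells, and 9.48 in siMUNC and 9.96 in control proliferating cells, a differentiation difference of -1.06 with siMUNC and -2.20 with the control siRNA. Mcm8 and Mcm9 form a separate helicase that acts in recombination repair. On differentiation Mcm8 was at -0.55 in siMUNC and -1.55 in control cells, the second past 2-fold, and Mcm9 at -0.10 in siMUNC and -0.65 in control cells. Both were dim, with mean levels below that of the median gene (Mcm8 reached at most 8.56 and Mcm9 at most 8.23). Mcm3ap, a nuclear export factor whose symbol fits the pattern, has no single-gene cluster and is no member.

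The loading factors were split. Orc1, the largest subunit of the origin complex, and Cdc6, which joins it to load the helicase, fell past 2-fold on differentiation in control cells. Orc2 to Orc5 differed by less than 2-fold. Orc1 read 7.37 in siMUNC and 6.32 in control differentiating cells, and 8.52 in siMUNC and 9.13 in control proliferating cells, a differentiation difference of -1.14 with siMUNC and -2.81 with the control siRNA. Cdc6 read 7.49 in siMUNC and 6.76 in control differentiating cells, and 8.14 in siMUNC and 8.82 in control proliferating cells, with differences of -0.65 and -2.06 for siMUNC and control cells. Both genes had the common order. Orc1 was dim in control differentiating cells, and adding an offset of 50 to the linear signals took its siMUNC difference there to 0.73, while a floor at the 25th percentile took it to 0.96.

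Orc6, a small subunit that joins the complex late, was at -0.61 on differentiation in siMUNC cells and past 2-fold lower in control cells (-1.29). Levels of Orc3 ran only from 10.94 to 11.10 over the 4 arrays. Orc2 read 9.92 in siMUNC and 9.88 in control differentiating cells, and 10.57 in siMUNC and 10.70 in control proliferating cells. It was thus lower on differentiation by similar amounts with either siRNA (-0.66 with siMUNC and -0.82 with the control). Orc5 was at -0.42 with siMUNC and -0.84 with the control, and its 2 differentiating arrays were 0.02 apart. Orc4 was at -0.08 in siMUNC and -0.37 in control cells.

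Cdc45 and the GINS subunits, which turn the loaded ring into the active helicase, also differed among themselves. Gins1 read 8.05 in siMUNC and 7.12 in control differentiating cells, and 9.35 in siMUNC and 9.88 in control proliferating cells. Its differentiation difference was -1.30 in siMUNC cells and -2.76 in control cells. Cdc45 (-0.88 in siMUNC and -1.81 in control cells) and Gins2 (-0.72 in siMUNC and -1.75 in control cells) were past 2-fold lower with the control siRNA only. Gins3 (-0.28 in siMUNC and -0.78 in control cells) and Gins4 (-0.17 in siMUNC and -0.67 in control cells), the 2 remaining subunits of the same 4-protein complex, stayed within 2-fold in both. A difference in call between siRNAs or subunits was not tested, since no spread is known.

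All 4 genes of polymerase alpha-primase, which makes the RNA-DNA primers, were lower on differentiation. In siMUNC cells 0 of 4 were past 2-fold (-0.98 for Prim1, -0.59 for Pola1, -0.62 for Prim2 and -0.63 for Pola2), and in control cells 4 of 4 were (-1.98, -1.93, -1.52 and -1.33 for the same genes). Prim2, the large primase subunit, read 10.68 in siMUNC and 9.80 in control differentiating cells, and 11.29 in siMUNC and 11.32 in control proliferating cells. Its differentiating arrays were thus 0.88 apart and its proliferating arrays 0.02, a difference whose sign turned under quantile normalization or centring. Pola1, the catalytic subunit, read 9.00 in siMUNC and 8.21 in control differentiating cells, and 9.58 in siMUNC and 10.14 in control proliferating cells, with siMUNC differences of 0.79 in differentiating and -0.56 in proliferating cells.

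The subunits of polymerases delta and epsilon, which copy the lagging and the leading strand, had the smallest differences together with the origin complex (median -0.90 in control cells, 2 of 7 past 2-fold lower). Pole2, the second subunit of polymerase epsilon, read 9.49 in siMUNC and 8.66 in control differentiating cells, and 10.22 in siMUNC and 10.52 in control proliferating cells. Pold3, a subunit of polymerase delta, read 10.45 in siMUNC and 9.75 in control differentiating cells, and 10.98 in siMUNC and 11.22 in control proliferating cells. Both genes had the common order. Their differentiation differences were -0.73 and -0.54 with siMUNC, and -1.86 and -1.47 with the control siRNA, for Pole2 and Pold3 in that order.

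The small accessory subunits did not follow it. Pole3 and Pole4 are histone-fold proteins of polymerase epsilon, and Pold4 is the smallest subunit of polymerase delta. Pole4 read 8.60 in siMUNC and 8.84 in control differentiating cells, and 8.94 in siMUNC and 9.12 in control proliferating cells, so siMUNC was lower in both states. Pold4 read 9.91 in siMUNC and 9.84 in control differentiating cells, and 10.23 in siMUNC and 10.08 in control proliferating cells, so siMUNC was higher in both, by 0.07 and 0.15. Pole3 was 0.02 lower with siMUNC in differentiating and 0.22 lower in proliferating cells. Pold2 reached -0.99 and Pold1 -0.90 on differentiation in control cells, just inside 2-fold.

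Of the 5 subunits of the RFC clamp loader, which places the PCNA ring on primed DNA, 4 had a single-gene cluster. Rfc3 kept the smallest share of its control difference. It read 9.68 in siMUNC and 8.62 in control differentiating cells, and 9.79 in siMUNC and 10.32 in control proliferating cells. The differentiation difference was thus -0.11 in siMUNC cells and -1.71 in control cells, and its 2 siMUNC arrays were closer to each other than either was to a control array. Rfc5 had the same order of arrays, with its siMUNC arrays farther apart. It read 10.72 in siMUNC and 9.75 in control differentiating cells, and 11.81 in siMUNC and 12.08 in control proliferating cells, and was past 2-fold lower on differentiation with either siRNA (-1.09 in siMUNC and -2.33 in control cells). Rfc4 was at -0.76 in siMUNC and -1.52 in control cells, and the large subunit Rfc1 at -0.34 in siMUNC and -0.93 in control cells. The difference of differences was 1.60 for Rfc3, 1.24 for Rfc5, 0.76 for Rfc4 and 0.59 for Rfc1.

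The 2 measured subunits of RPA, which coats single-stranded DNA, differed less. Rpa1 read 10.38 in siMUNC and 10.02 in control differentiating cells, and 11.06 in siMUNC and 11.22 in control proliferating cells. Rpa2 read 9.54 in siMUNC and 9.14 in control differentiating cells, and 10.02 in siMUNC and 10.43 in control proliferating cells. On differentiation both stayed within 2-fold with siMUNC (-0.68 for Rpa1 and -0.48 for Rpa2) and were past it with the control siRNA (-1.20 and -1.29 for the same genes). Fen1, the flap nuclease that trims Okazaki fragments, read 8.76 in siMUNC and 7.94 in control differentiating cells, and 9.39 in siMUNC and 9.97 in control proliferating cells.

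Tk1, the thymidine kinase of S phase, had the largest difference of the 44 in each differentiation comparison. It read 8.44 in siMUNC and 7.59 in control differentiating cells, and 9.77 in siMUNC and 10.77 in control proliferating cells. That was 2.51-fold lower on differentiation with siMUNC and 9.05-fold lower with the control siRNA. In proliferating cells its siMUNC difference, -0.999, fell just short of 2-fold and was again the widest of the 44. Tyms, thymidylate synthase, read 9.32 in siMUNC and 8.65 in control differentiating cells, and 10.15 in siMUNC and 10.71 in control proliferating cells. A pseudogene close to Tyms is named with it on another cluster, so its reading may include a near-identical copy.

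Rrm1, the large subunit of ribonucleotide reductase, behaved otherwise. It read 11.57 in siMUNC and 11.56 in control differentiating cells, and 12.17 in siMUNC and 12.41 in control proliferating cells. It was lower on differentiation by 0.60 with siMUNC and by 0.85 with the control siRNA, and the order of its differentiating arrays turned under quantile normalization, centring and cyclic loess. Of the chromatin assembly factor CAF-1, which deposits histones behind the fork, Chaf1b read 9.57 in siMUNC and 8.38 in control differentiating cells, and 10.54 in siMUNC and 10.89 in control proliferating cells. Its partner Chaf1a read 8.96 in siMUNC and 8.24 in control differentiating cells, and 9.56 in siMUNC and 9.97 in control proliferating cells. Chaf1b had the highest siMUNC difference of the 44 in differentiating cells (2.29-fold), and Chaf1a was at 1.64-fold.

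**Figure D2:**
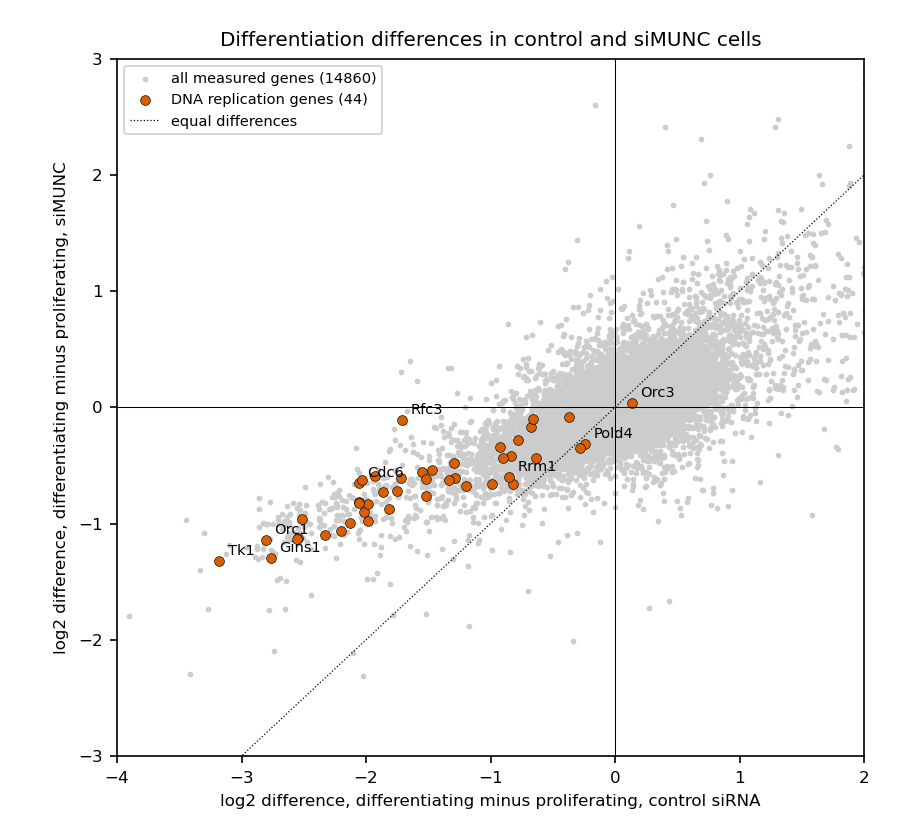
Log2 difference between differentiating and proliferating cells with siMUNC (vertical axis) against the same with the control siRNA (horizontal axis), for the 44 replication genes (orange) and all 14860 measured genes (grey, 165 of them beyond the axes); the dotted line marks equal differences. Most members lie left of 0 and above the dotted line, with Tk1 at -1.33 with siMUNC and -3.18 with the control, and Rfc3 at -0.11 with siMUNC and -1.71 with the control.

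The differentiation differences with siMUNC and with the control siRNA rest on different arrays and can be set against each other. Across the 44 members they had a Pearson correlation of 0.879, and across all 14860 genes 0.756. Genes are not independent replicates, and all arrays share the authors' normalization, so these are descriptions. Among the 30 members past 2-fold lower with the control siRNA, the siMUNC difference was 41.3% of the control difference at the median, from 6.27% for Rfc3 to 56.5% for Rpa1. The 30 were picked on the control arrays, which by itself favours a smaller siMUNC difference.

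As a percentage of the way from control differentiating to control proliferating cells, the siMUNC differentiating array stood at a median of 39.2% and the siMUNC proliferating array at 80.5% over these 30 genes. The range for siMUNC differentiating cells was 24.3% (Mcm4) to 62.3% (Rfc3), with Prim2 next at 58.1%. In siMUNC proliferating cells it was 67.1% (Cdc6) to 98.7% (Prim2). For all 30 both siMUNC arrays lay within the control span, which the choice of these genes favours.

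**Figure D3:**
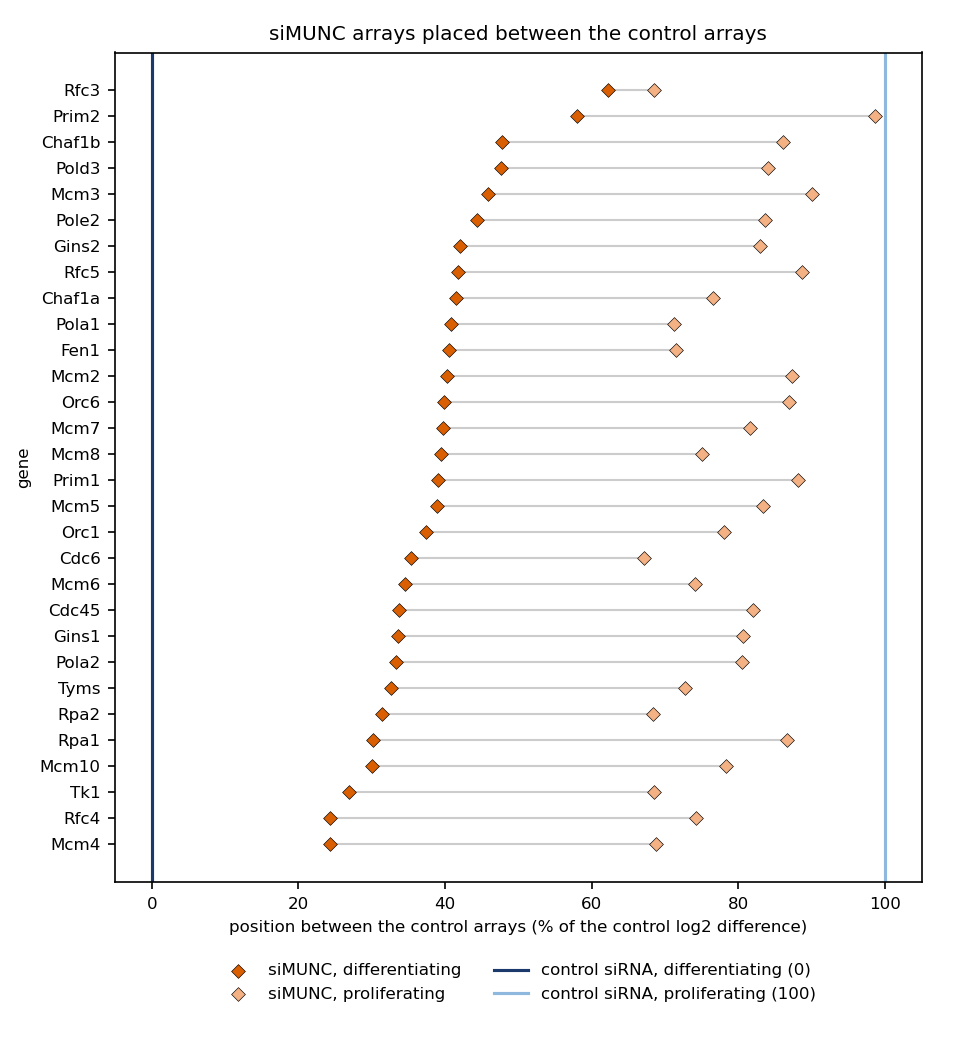
Position of the 2 siMUNC arrays between the control arrays for the 30 replication genes past 2-fold lower on differentiation with the control siRNA, as percent of the control log2 difference (horizontal axis), 1 row per gene, with vertical lines at the control differentiating (left) and control proliferating (right) arrays. The siMUNC differentiating points run from 24.3% to 62.3% and the siMUNC proliferating points from 67.1% to 98.7%.

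The siMUNC differences in proliferating and in differentiating cells also rest on different arrays. Across the 44 members their Pearson correlation was -0.474, and across all genes 0.150. Cdc6 (0.73 in differentiating and -0.68 in proliferating cells), Orc1 (1.05 in differentiating and -0.61 in proliferating cells) and Tk1 (0.85 in differentiating and -0.999 in proliferating cells) were past 1.5-fold on both sides. The share of all genes with that pattern was not computed. Mcm3 and Prim2 were high on the differentiating side with little on the proliferating side (-0.25 and -0.02), whereas Orc5 was at -0.02 in differentiating and -0.44 in proliferating cells. Of 3 proliferation markers the 2 measured had the same signs: Mki67 was at 1.19 in differentiating and -0.64 in proliferating cells, and Top2a at 1.10 in differentiating and -0.32 in proliferating cells. Their part in the members' values was not tested.

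**Figure D4:**
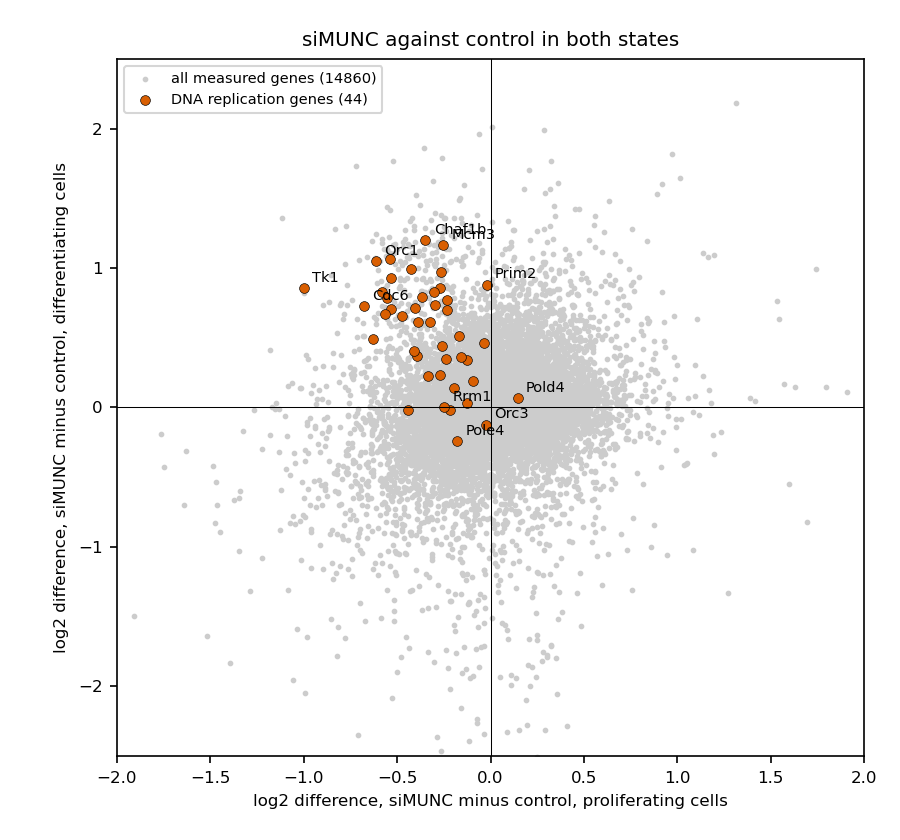
Log2 difference between siMUNC and control cells in differentiating (vertical axis) against proliferating cultures (horizontal axis), for the 44 replication genes (orange) and all 14860 measured genes (grey, 14 beyond the axes). Of the members, 39 lie left of 0 and above 0, and Pold4 lies at 0.15 and Orc3 at -0.02 on the horizontal axis.

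Because the members moved together, their promoters were searched for 4 spellings of the E2F word, TTTCCCGC, TTTCGCGC, TTTGCCGC and TTTGGCGC, on both strands. Windows came from RefSeq (GRCm38.p6), 250 bases before to 50 after a start listed for the gene, with 1 or more windows per gene. Of the 44 members 39 had at least 1 window. The word was in 16 of 46 member windows (34.8%) and in 744 of all 32851 windows (2.26%). The CCAAT word of the factor NF-Y was in 26 of 46 member windows (56.5%), against 37.4% of all windows, and the E2F word overlapped CCAAT once among the members. By gene, 11 of 26 members past 2-fold lower in control cells had the E2F word, and 4 of 13 others. A match is a description of the sequence and says nothing of binding in these cells.

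The 150 bases before the start are shown for the 2 members with the largest and the 2 with the smallest fall in control cells, for the member with the highest siMUNC difference in differentiating cells, and for 2 helicase genes chosen after the matches were seen. E2F words are in capitals, strands are those of the gene, and all run 5′ to 3′. Tk1 (chr11:117826015-117826164, minus strand), with the largest fall, and Chaf1b (chr16:93883751-93883900, plus strand) hold no such word. Orc1 (chr4:108579304-108579453, plus strand), next after Tk1, holds TTTCGCGC on the opposite strand from 27 to 20 bases before the start. The start used for Orc1 lies inside the gene's span in the RefSeq gene table (108575705 to 108616030) and not at its edge. Orc3 (chr4:34614943-34615092, minus strand), the flattest member, holds TTTCCCGC from 41 to 34 bases before the start, and Pold4 (chr19:4231743-4231892, plus strand) holds none. Mcm6 (chr1:128359706-128359855, minus strand) holds 3, the first 2 of which overlap, and Mcm5 (chr8:75109359-75109508, plus strand) holds 1 here and another that begins just upstream of this stretch.
Tk1: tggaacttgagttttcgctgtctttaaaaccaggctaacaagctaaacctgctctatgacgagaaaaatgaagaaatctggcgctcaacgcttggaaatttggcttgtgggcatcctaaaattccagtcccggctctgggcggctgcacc
Orc1: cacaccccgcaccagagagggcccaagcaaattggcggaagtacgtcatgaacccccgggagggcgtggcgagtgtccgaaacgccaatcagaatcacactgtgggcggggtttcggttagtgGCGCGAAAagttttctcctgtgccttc
Orc3: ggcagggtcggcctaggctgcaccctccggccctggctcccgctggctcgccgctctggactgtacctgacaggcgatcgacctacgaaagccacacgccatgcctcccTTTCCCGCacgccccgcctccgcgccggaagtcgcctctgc
Pold4: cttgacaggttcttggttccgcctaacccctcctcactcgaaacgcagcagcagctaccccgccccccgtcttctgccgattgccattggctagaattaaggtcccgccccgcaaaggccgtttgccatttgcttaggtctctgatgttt
Chaf1b: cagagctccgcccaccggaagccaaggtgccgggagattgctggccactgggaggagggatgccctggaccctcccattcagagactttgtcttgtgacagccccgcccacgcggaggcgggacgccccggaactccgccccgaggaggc
Mcm5: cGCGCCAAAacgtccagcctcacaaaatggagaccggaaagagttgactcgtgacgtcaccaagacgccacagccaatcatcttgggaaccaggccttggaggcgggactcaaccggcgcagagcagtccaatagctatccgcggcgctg
Mcm6: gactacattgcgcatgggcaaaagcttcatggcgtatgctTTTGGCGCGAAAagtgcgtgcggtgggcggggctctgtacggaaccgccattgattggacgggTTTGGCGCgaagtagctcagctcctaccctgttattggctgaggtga
Among the members shown for the largest or smallest fall in control cells, Orc1 (-2.81) and Orc3 (0.14) carry the word. Tk1 (-3.18) and Pold4 (-0.24) lack it in this window. Any relation between the word and the members' values was not tested.

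Other genes of the pathway were taken from 6 lists, 63 of whose 74 genes were measured. Together 7 of the 63 were past 2-fold lower on differentiation in siMUNC cells (median -0.48), against 0.828% of all measured genes. In control cells 37 were (median -1.25), against 4.08% of all genes. With siMUNC 11 of 63 were past 2-fold higher in differentiating cells (median 0.41), against 1.27% of all genes. In proliferating cells 1 of 63 was past 2-fold lower with siMUNC (median -0.23), against 0.350% of all genes. The common order of the 4 arrays was seen in 40 of 63, against 11.1% of all genes. The same shares of all genes apply to these counts in the single lists below.

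Of the genes that control licensing and firing, 3 of 12 were past 2-fold lower on differentiation in siMUNC cells (median -0.77) and 11 of 12 in control cells (median -1.82), and all 12 had the common order. Dbf4, the activating subunit of the Cdc7 kinase that fires origins, read 10.03 in siMUNC and 8.65 in control differentiating cells, and 10.87 in siMUNC and 11.13 in control proliferating cells. Its siMUNC difference in differentiating cells (1.38) was above that of every member, and Wdhd1 (1.19) and Topbp1 (1.05) were past 2-fold higher too. Gmnn, the geminin inhibitor of licensing, and Cdt1, the loading factor it binds, were both lower on differentiation (Gmnn -0.86 in siMUNC and -1.80 in control cells, Cdt1 -0.73 and -1.76 in the same order).

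At the fork and its checkpoint, 2 of 13 genes were past 2-fold lower on differentiation in siMUNC cells and 10 of 13 in control cells (median -1.92). Pole, the catalytic subunit of polymerase epsilon, whose symbol has no digit, read 9.46 in siMUNC and 8.19 in control differentiating cells, and 10.45 in siMUNC and 10.69 in control proliferating cells. It was thus unlike its small partners Pole3 and Pole4. Past 2-fold higher with siMUNC in differentiating cells were Pole (1.27), the checkpoint kinase gene Chek1 (1.12) and Top2a (1.10). Slbp, which binds histone mRNA, was the 1 gene past 2-fold lower with siMUNC in proliferating cells (-1.13). It read 4.28 in siMUNC and 4.30 in control differentiating cells, and 6.57 in siMUNC and 7.71 in control proliferating cells. Every Slbp reading was dim, below the median signal of each array, which limits what its differences can show. Top1, a topoisomerase, went the other way on differentiation (0.24 in siMUNC and 0.50 in control cells) and was lower with siMUNC in both states (-0.82 in differentiating and -0.56 in proliferating cells).

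For other genes of nucleotide supply, 0 of 9 were past 2-fold lower on differentiation in siMUNC cells and 6 of 9 in control cells. Dck, a deoxynucleoside kinase, was at -0.74 with siMUNC and -1.93 with the control siRNA, while Tk2, the mitochondrial thymidine kinase, was at 0.34 and 0.07, far from its S-phase counterpart Tk1. Of the chromatin genes 5 of 8 were past 2-fold lower in control cells, led by Uhrf1 (-0.97 in siMUNC and -2.70 in control cells), which brings the maintenance methylase to new DNA. Asf1b and Asf1a, 2 histone chaperones of 1 family, parted: Asf1b was at -0.66 in siMUNC and -2.09 in control cells, and Asf1a at -0.25 and -0.36 in the same order.

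The list of E2F and pocket proteins held both directions. On differentiation 3 of 11 were past 2-fold lower in control cells, namely the repressor E2f7 (-1.01 in siMUNC and -2.45 in control cells), Rbl1 of the pocket protein family (-0.79 in siMUNC and -2.01 in control cells) and the activator E2f1 (-0.31 in siMUNC and -1.24 in control cells). Rb1, the retinoblastoma gene, was past 2-fold higher in control cells (0.78 in siMUNC and 1.40 in control cells). With siMUNC in differentiating cells E2f7 was at 1.23, E2f1 at 0.60 and Rb1 at -0.67. Of the translesion and repair polymerases 2 of 10 were past 2-fold lower in control cells, Polq (-1.48 in siMUNC and -2.72 in control cells) and Polh (-0.42 in siMUNC and -1.11 in control cells), and the list's median was -0.20.

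**Figure D5:**
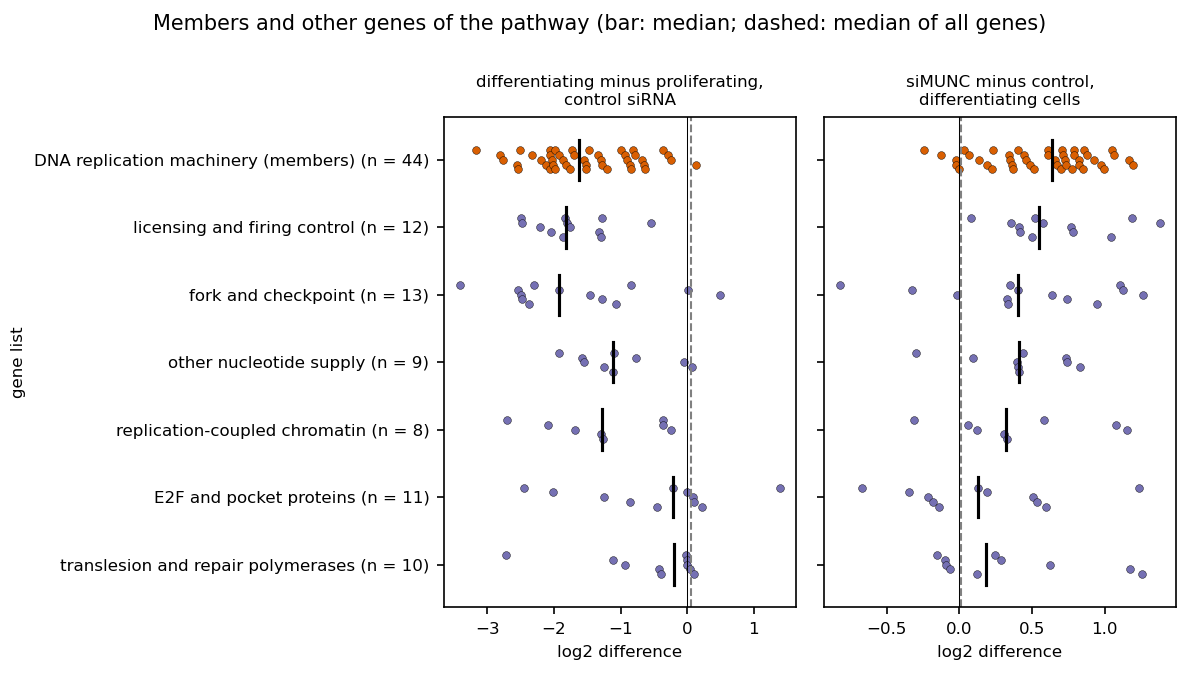
Log2 differences (horizontal axis) of the replication genes (orange) and of 6 lists of other pathway genes (purple), 1 point per gene, for differentiating minus proliferating control cells (left) and for siMUNC minus control in differentiating cells (right); black bars are list medians and the dashed line is the median of all measured genes. Member medians are -1.63 on the left and 0.63 on the right, and the E2F and polymerase lists lie nearest 0 on both sides.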

How the data were processed

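RNA from 4 C2C12 samples was hybridised to Affymetrix arrays with a whole-transcript labelling kit, 1 per group, and groups were taken from the sample labels. The deposited log2 signals come from the authors' run of Expression Console, as named in the submitters' processing notes. Neither the version nor the background correction, normalization or build of that run is given in the sources used. The log2 scale was inferred from the range (2.56 to 14.3). Array medians ran from 7.96 to 8.03. The deposited values were used unchanged. Scanner files and detection calls were not used here.

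Of 23332 transcript clusters, 14996 had 1 gene symbol, which gave 14860 genes. A gene with several clusters was represented by the one with the highest mean. All 44 members matched a RefSeq gene table by Entrez identifier. Rfc2 and Rpa3 had no single-gene cluster in the table used and were not analysed here.

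Differences between arrays were computed with Python 3.11.15 and pandas 2.3.3, and the scripts were tested on simulated data. No model was fitted. Members, lists and comparisons were chosen with earlier results of these data known. Every member may be named, and other genes come from the 6 pathway lists and the markers. Alternatives were quantile normalization and cyclic loess (limma 3.58.1), median centring, an offset of 50, a floor at the 25th percentile, the mean of a gene's clusters, expressed genes only, the 22 listed genes only, and 1.5-fold in place of 2-fold.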

Additional observations from a re-analysis of the deposited data

Results flagged for a closer look

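The siMUNC difference had opposite signs in differentiating and proliferating cells. Over the 44 members the median was 0.63 in differentiating and -0.30 in proliferating cells, and the median of the difference between the 2 was 0.97. With 1 array per group this difference was not tested. Of single members, Cdc6, Orc1 and Tk1 were past 1.5-fold on opposite sides in the 2 states, with differences of differences of 1.40, 1.66 and 1.85 in that order. The share of all genes past 1.5-fold on opposite sides was not computed, so how unusual this is among all genes is unknown.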

How the results depend on the processing

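No paired analysis was possible because each group has 1 array and the labels give no replicate numbers, and no array could be left out for the same reason. Leaving out Mcm3ap changed nothing, since it is no member. Each member has 1 cluster, so the mean of a gene's clusters could not change any member value and is no check on them. The medians of the 44 members kept their sign in all 5 comparisons under all 8 alternatives that give a median, this one included. They moved by 0.1 or more in these cases: with the 22 listed genes alone they were -0.85 (differentiation, siMUNC), -2.04 (differentiation, control), 0.78 (siMUNC against control, differentiating), -0.41 (the same, proliferating) and 1.24 (difference of differences), and with expressed genes only 0.51 for siMUNC against control in differentiating cells. The count past 2-fold higher with siMUNC in differentiating cells was 2 with an offset of 50 (0.774% of all genes) and 24 at 1.5-fold (4.63% of all genes). At 1.5-fold 29 members were lower on differentiation in siMUNC cells (3.97% of all genes) and 4 lower with siMUNC in proliferating cells (2.39% of all genes). The common order of the arrays was seen in 22 of 22 listed genes, in 39 of all 44 members and in 11.1% of all genes. On differentiation in control cells 21 of the 22 listed genes were past 2-fold lower, against 30 of all 44 members and 4.08% of all genes. In siMUNC cells the listed genes held 6 of the 7 members past 2-fold lower (0.828% of all genes). They held 3 of the 4 past 2-fold higher with siMUNC in differentiating cells (1.27% of all genes). For a difference of differences of at least 1 they held 19 of 21 (2.00% of all genes). The 22 were listed with earlier results of these data known. Their values therefore cannot serve as an independent check, and the members found by symbol alone depart more often from the pattern. Of 1320 single-member values, 13 moved inside and 4 outside 2-fold, and 0 of those past 2-fold changed sign. The 1320 include 220 from the mean of a gene's clusters, which could not move. Gins3, Orc3 and Prim2 turned to positive siMUNC differences in proliferating cells under quantile normalization and centring. Over all genes, centring moved the siMUNC calls in proliferating cells to 0.262% lower and 0.330% higher, against 0.350% and 0.236% as reported. Signal over background is unknown, which limits what the dim readings of Orc1, Cdc6 and Mcm8 can show.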

Other observations

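Some genes near the replication lists departed from the pattern of the members. Polk, a translesion polymerase, was higher with siMUNC in both states, reading 10.51 in siMUNC and 9.26 in control differentiating cells, and 10.80 in siMUNC and 10.20 in control proliferating cells. Samhd1, which breaks down deoxynucleotides, was slightly lower with siMUNC in both (-0.29 in differentiating and -0.09 in proliferating cells). E2f8 was also lower with siMUNC in both (-0.35 in differentiating and -0.36 in proliferating cells), unlike its relative E2f7.

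Clusters shared with another gene were kept out of the members. The cluster of Mcm3ap and Ybey read 9.79 in siMUNC and 9.72 in control differentiating cells, and 9.80 in siMUNC and 9.78 in control proliferating cells. The cluster of Tyms-ps and Tyms was dim, at 4.52 in siMUNC and 4.65 in control differentiating cells, and 4.70 in siMUNC and 5.04 in control proliferating cells.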
